A study of Mus musculus with 47 samples.

Results

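Loss of Bcl11b was examined in mouse T-cell precursors that had been grown from fetal liver on OP9-DL4 stroma with standard IL-7. Titles and labels chose 5 of the 47 RNA-seq libraries of the series: 3 knockout libraries titled August, September and October of a single year, and 2 control libraries titled September and October of that year. Knockout cells came from E13.5 Bcl11b fl/fl embryos, some of them with a ROSA26R-YFP reporter, from a floxed stock that had been crossed to C57BL6/J. Control cells came from C57BL/6 embryos of the same age, with or without that reporter, and are titled B6_Cre. Both received a Cre retrovirus, were held for 24 hours with Flt3L, IL-7 and SCF, were re-sorted as Kit+ CD27+, and went back onto OP9-DL4 cells with Flt3L and IL-7 at 5 ng/ml. OP9-DL4 is a stromal line that displays the Notch ligand Delta-like 4. The titles give culture day 9 for the August knockout and day 8.5 for both October libraries, and none for September. Knockout cells were gated as DN2a (CD45+ CD25+, very high Kit) and controls as DN2b (CD45+ CD25+, intermediate Kit), both lineage-negative. Genotype, mouse line and gate therefore changed together and cannot be told apart. The labels do not say whether libraries of a group came from separate embryos or cultures, so the p-values measure only the spread between these libraries, which may be partly technical.

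DN2a and DN2b are successive stages of double-negative T-cell precursors, at which Notch signals and IL-7 drive growth while the choice of the T lineage becomes fixed. Bcl11b, a DNA-binding protein with zinc fingers, first appears around that transition. It is known for shutting off progenitor and natural killer (NK) genes, and for allowing genes of the T-cell receptor complex to come on.

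Expression is given in FPKM, fragments scaled to transcript length and library size, as adjusted by the authors with ComBat, and the values of a group always follow the order of the months. Differences are knockout minus control on the scale log2(FPKM + 1), which understates changes of genes with low values, and a gene is called when its limma adjusted p is below 0.05. The lowest value in the table is 0.1 FPKM, taken here as a floor. A gene at the floor throughout a group has no spread there, which can make its p-value too small. Between 11934 and 12702 genes reached 1 FPKM in each of the 5 libraries, and 12793 were tested. The sequencing depth behind these values is unknown. Log2 values correlated at 0.972 to 0.977 between knockouts, at 0.978 between the controls, and at 0.950 to 0.964 between a knockout and a control. The column names of the 3 knockouts carry the word new and those of the controls the tags L_1 and N, with no meaning given, so whatever these mark cannot be told apart from the genotype. Of the 8 markers of DN2 cells, including Kit, Il2ra (CD25), Cd44 and Thy1, all were detected in every library and none was called.

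Bcl11b itself had 29.6, 26.4 and 24.6 FPKM in the knockouts, against 39.9 and 62.1 FPKM in the controls. All knockouts were below both controls, but the difference of -0.87 ± 0.22 (SE) did not pass the test (limma adjusted p = 0.0848, and 0.0622 with the title date as a block). The values count reads over the whole gene, and the labels do not say which exons the floxed allele loses, so they do not measure the deletion. Bcl11a, the closest relative of Bcl11b and a regulator of lymphoid progenitors, had 17.3, 16.1 and 16.4 FPKM in the knockouts, against 5.15 and 3.33 FPKM in the controls. The groups were well apart, and Bcl11a rose by 1.77 ± 0.21 (limma adjusted p = 0.00582). Its adjusted p was 0.0572 when the August knockout was left out, and it stayed called when any other library was left out.

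Across the table, 268 of 12793 genes were called (2.09%), 167 of them higher in the knockout (1.31%) and 101 lower (0.789%). All 3 knockouts were above both controls for 20.6% of the genes tested and below both for 14.3%. In 150 of the higher and 93 of the lower calls the difference exceeded 2-fold on the log2(FPKM + 1) scale. The median difference over all genes tested was 0.05. With the title date as a block, which compares the September and the October pairs and gives the unpaired August knockout no weight in the difference, 645 genes were called, 311 higher and 334 lower. The number called was 78 without the August knockout, 107 without the October knockout, 135 without the September control and 59 without the October control. It was 244 without the September knockout. Of the 268 genes, 32 were called in the full comparison and in all 5 that left out a library, 23 higher and 9 lower. They include Klrd1, Gal, Trnp1, Pdzk1, Gpr83, Tas1r1, Nrarp, Cxcr5, Fcgr3 and Fcer1g among the higher genes described here, and Cd3d, Ndrg1 and Ttll9 among the lower. With no filter on low values 19 of the 32 were called, without Klrd1, Gpr83, Tas1r1, Cd3d, Ndrg1 and Ttll9. With a spread shared over 31 fetal liver libraries 22 were, without Cd3d, Fcer1g and Ndrg1. Klrd1, Gal and Trnp1 had passed the filter through the knockouts alone, with both controls at the floor and so without spread.

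**Figure D1:**
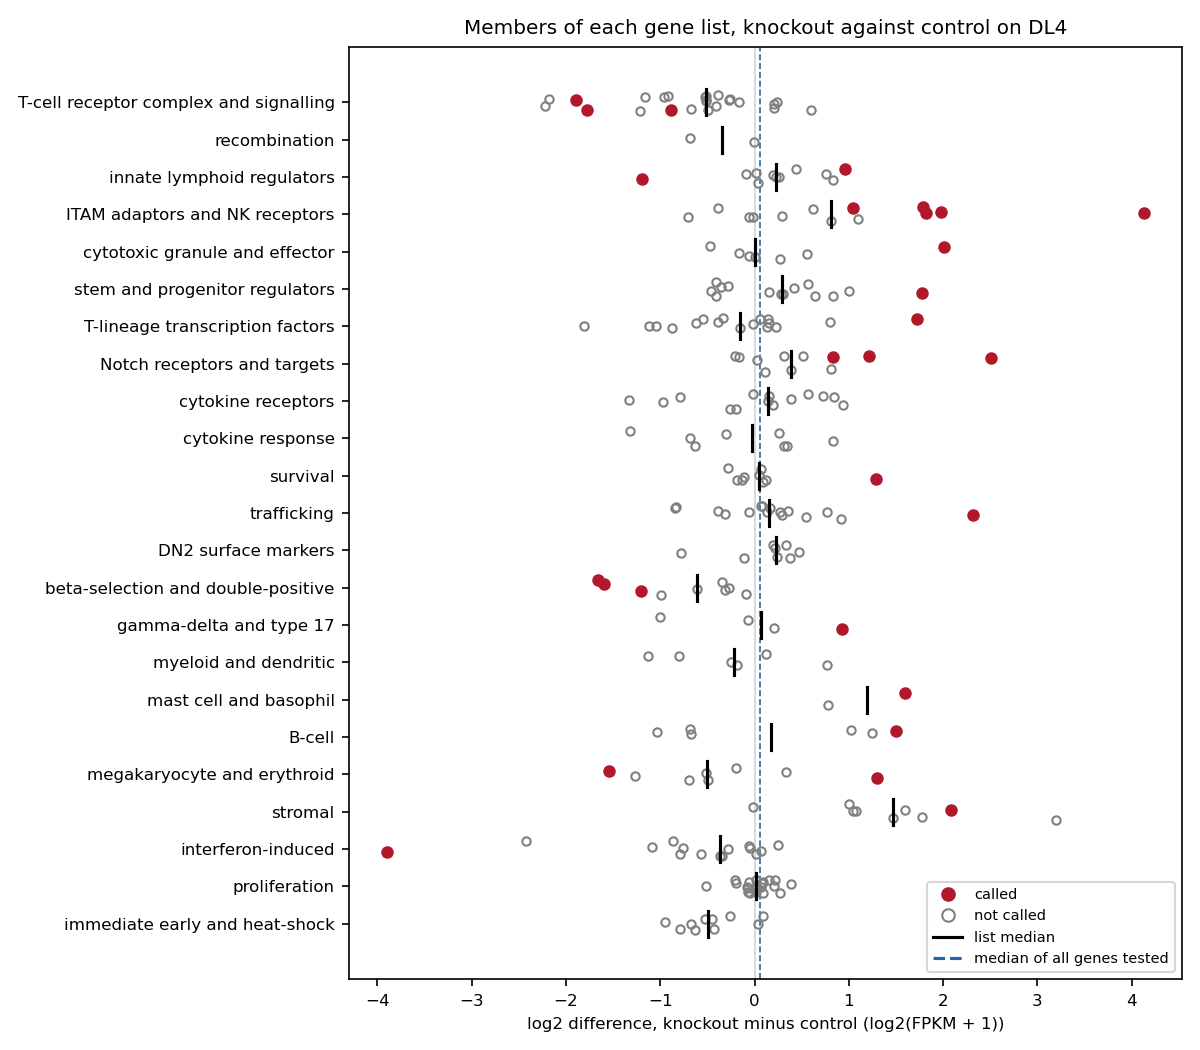
Log2 difference of every tested member of 23 gene lists, knockout minus control on the log2(FPKM + 1) scale; filled points are called, open points are not, black bars mark each list's median and the dashed line the median over all genes tested (0.05). The T-cell receptor list lies mostly left of that line, with 3 called members, and the ITAM and NK receptor list mostly right of it, with 5. Over all genes tested 2.09% were called.

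Of 24 genes of the T-cell receptor complex and its proximal signalling, 3 fell in the knockouts and none rose. Over all genes tested 0.789% were called lower and 1.31% higher. The list's median difference was -0.52, beside 0.05 for all genes tested. In 16 of the 24 all knockouts lay below both controls, beside 14.3% of all genes tested. Cd3d, a signalling chain of the CD3 complex, had 63.1, 68.6 and 62.9 FPKM in the knockouts, against 198 and 301 FPKM in the controls. The knockouts were tightly grouped far below both controls, and Cd3d fell by 1.90 ± 0.21 (limma adjusted p = 0.00473). It was not called with no filter on low values (0.0557) or with the spread shared over the 31 fetal liver libraries (0.733). Its neighbour Cd3g had 449, 217 and 336 FPKM in the knockouts, against 816 and 1486 FPKM in the controls. Here the groups were apart but each was spread, and the fall of 1.78 ± 0.34 (limma adjusted p = 0.0385) was no longer called without the August knockout (0.0795), the October knockout (0.114) or the October control (0.230), nor with the date as a random block (0.0559). Cd247, the CD3 zeta chain, had 49.97, 51.8 and 47.2 FPKM in the knockouts, against 96.4 and 89.2 FPKM in the controls. It fell by 0.89 ± 0.16 (limma adjusted p = 0.0298), with nearly equal values within each group. Yet Cd247 was not called when any knockout was left out (limma adjusted p = 0.0637 to 0.121). With any library left out its difference ran from -0.944 to -0.833. It was not called with the title date as a fixed block (0.0708), but was with the date as a random block (0.0393).

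Other genes of the complex were more scattered. Cd3e, the remaining CD3 chain, had 56.2, 13.8 and 17.1 FPKM in the knockouts, against 74.9 and 176 FPKM in the controls. The August knockout stood between the other knockouts and the September control, and the difference of -2.23 ± 0.56 was not called (limma adjusted p = 0.0836). Within the September and October pairs alone it was called (2.1e-07 with the title date as a fixed block, which left 1 residual degree of freedom). With the date as a random block it was not called (0.1135). Ptcra, which encodes the pre-T-cell receptor alpha chain, had 31.7, 46.6 and 36.4 FPKM in the knockouts, against 61.2 and 120 FPKM in the controls. All knockouts were below both controls, and the difference was -1.16 ± 0.29 (limma adjusted p = 0.0831). Ptcra was called with the fixed block (0.0496) but not with the random block (0.0979). Zap70, a kinase that binds phosphorylated CD3 chains, had 2.48 and 5.78 FPKM in the September and October knockouts. It was listed at the floor of 0.1 in the August knockout, against 12.5 and 12.4 FPKM in the controls. The difference did not pass the test (limma adjusted p = 0.111, and 0.128 with the random block), but was called with the fixed block (0.00219). With the fixed block 7 members of the list were lower, Cd3d, Cd3g, Cd3e, Ptcra, Zap70, Cd5 and Cd6. Of these, only Cd3d was also called with the random block (0.00653). Lat and Lck, an adaptor and a kinase of the same pathway, differed by -0.92 (limma adjusted p = 0.0607) and -0.52 (0.304). Cd2 and Tespa1 were the members with every knockout above both controls, at 0.60 and 0.21, neither called. The recombinase genes Rag1 and Rag2 overlapped between the groups: Rag1 had 158, 168 and 58.7 FPKM in the knockouts, against 129 and 271 FPKM in the controls.

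The starts of Cd3g and Cd3d lie 1355 bases apart on chromosome 9 and point away from each other, so their promoters are shown together. Each sequence runs from 250 bases before to 50 after the start of the gene, 5′ to 3′ on the strand of the gene, from RefSeq on build GRCm38.p6, while the expression values were made on mm9. Capitals mark the E-box CAGNTG, the core bound by E proteins, and none holds TGTGGT, the core bound by Runx factors, searched on both strands with no overlap between the motifs. Cd3g lies at chr9:44980382-44980681, minus strand, with 3 E-boxes, and Cd3d at chr9:44981536-44981835, plus strand, with 1.
Cd3g: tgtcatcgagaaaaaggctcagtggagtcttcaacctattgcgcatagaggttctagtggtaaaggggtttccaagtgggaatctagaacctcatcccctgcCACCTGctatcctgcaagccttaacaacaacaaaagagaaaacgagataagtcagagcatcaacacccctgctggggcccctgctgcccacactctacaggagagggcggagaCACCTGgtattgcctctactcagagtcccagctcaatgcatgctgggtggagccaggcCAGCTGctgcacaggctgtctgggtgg
Cd3d: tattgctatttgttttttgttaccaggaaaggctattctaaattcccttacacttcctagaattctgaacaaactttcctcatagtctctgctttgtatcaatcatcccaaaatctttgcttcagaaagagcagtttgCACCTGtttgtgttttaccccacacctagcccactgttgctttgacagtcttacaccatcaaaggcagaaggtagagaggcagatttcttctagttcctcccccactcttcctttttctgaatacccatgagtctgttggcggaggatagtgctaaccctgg
An E-box was found in 33 of 57 lower genes with a sequence (57.9%), in 67 of 116 higher genes (57.8%), in 42.3% of the genes tested and in 51.1% of all promoters of this length in the collection. The counts for TGTGGT were 10 of 57 (17.5%) and 21 of 116 (18.1%), beside 12.9% and 16.9%. A match is a string of letters and not evidence of binding.

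Of 13 tested genes for adaptors, Fc receptors and NK-cell receptors, 5 rose in the knockouts and none fell. Over all genes tested 1.31% were called higher and 0.789% lower. The adaptors Fcer1g and Tyrobp carry an ITAM, the same kind of signalling motif as in the CD3 chains, but serve Fc and NK receptors. The list had a median difference of 0.81, beside 0.05 for all genes tested. All knockouts were above both controls for 9 of the 13, beside 20.6% of all genes tested. Fcer1g, the Fc receptor gamma chain, had 297, 255 and 313 FPKM in the knockouts, against 93.3 and 73.6 FPKM in the controls. It rose by 1.78 ± 0.19 (limma adjusted p = 0.00473), with no overlap. Fcgr3, a low-affinity receptor for immunoglobulin G that signals through Fcer1g, had 48.9, 47.7 and 40.9 FPKM in the knockouts, against 13.3 and 11.2 FPKM in the controls. The groups were tight and far apart, and it rose by 1.82 ± 0.18 (limma adjusted p = 0.00328). Tyrobp, the DAP12 adaptor of NK and myeloid receptors, had 173, 162 and 168 FPKM in the knockouts, against 87.7 and 74.6 FPKM in the controls. Its rise of 1.04 ± 0.17 (limma adjusted p = 0.0180) was called without the September knockout, and not without the August (0.0951) or October knockout (0.0564) or the September (0.0553) or October control (0.150).

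Klrd1 had the largest difference in this list. It encodes CD94, which pairs with NKG2 receptors, and had 10.5, 29.8 and 19.2 FPKM in the knockouts, while both controls were listed at the floor of 0.1. All knockouts were above the floor and both controls at it, a difference of 4.13 ± 0.36 (limma adjusted p = 0.00195). Klrd1 passed the filter on low values through the knockouts alone, and the controls added no spread. Controls elsewhere had 0.1 to 3.92 FPKM on DL1 and 1.95 to 4.01 FPKM with reduced IL-7. Cd244, the 2B4 receptor of NK cells, had 20.0, 19.2 and 12.0 FPKM in the knockouts, against 5.81 and 1.96 FPKM in the controls. It rose by 1.98 ± 0.36 (limma adjusted p = 0.0298) and was not called without the August (0.150) or October knockout (0.0781) or the October control (0.153). Klrc1, an NKG2 partner of CD94, was low, at 0.97, 3.48 and 1.05 FPKM in the knockouts, against 0.24 and 0.21 FPKM in the controls. It was not called (limma adjusted p = 0.157, and 0.199 with the random block), except with the fixed block (0.00242). Cd160 and Sh2d1b1, at 0.81 and 0.62, were also above both controls in every knockout without passing the test (limma adjusted p = 0.0734 and 0.164). Hcst, the DAP10 adaptor, lay the other way, at 14.4, 10.1 and 20.0 FPKM in the knockouts, against 27.1 and 21.4 FPKM in the controls (limma adjusted p = 0.219). The NK receptor gene Klrb1f was also below both controls in every knockout (-0.38, limma adjusted p = 0.365). Klrb1b and Klrb1c differed by -0.06 and 0.29, neither called (limma adjusted p = 0.908 and 0.562). Ncr1, Klrk1 and Klrc2 were too low to be tested.

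Among 7 tested genes of cytotoxic granules and effectors only Gzma was called, beside 1.31% of all genes tested called higher. The list's median was -0.00. Gzma, the protease granzyme A, had 3916, 4630 and 3842 FPKM in the knockouts, against 1086 and 964 FPKM in the controls. It rose by 2.01 ± 0.22 (limma adjusted p = 0.00473), without overlap, and only leaving out the October control ended the call (0.0654). Gzmb overlapped between the groups, at 26.3, 79.1 and 37.7 FPKM in the knockouts, against 74.6 and 26.5 FPKM in the controls. Nkg7 was below both controls in every knockout, at 154, 121 and 150 FPKM, against 233 and 165 FPKM (limma adjusted p = 0.283). Prf1, Gzmc, Fasl and Ifng were too low to be tested, and Gzmk is not in the table. The promoters of Fcer1g and Gzma, as abundant genes that rose, are shown as above, with each E-box and the Runx core TGTGGT, or its complement, in capitals. Fcer1g lies at chr1:171234300-171234599 and Gzma at chr13:113100932-113101231, both on the minus strand, and each holds 2 E-boxes and 1 Runx core.
Fcer1g: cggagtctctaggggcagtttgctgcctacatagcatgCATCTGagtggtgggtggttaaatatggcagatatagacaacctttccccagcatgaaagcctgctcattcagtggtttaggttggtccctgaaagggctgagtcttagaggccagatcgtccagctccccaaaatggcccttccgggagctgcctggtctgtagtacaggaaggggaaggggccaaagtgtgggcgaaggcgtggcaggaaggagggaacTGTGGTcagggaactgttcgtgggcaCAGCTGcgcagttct
Gzma: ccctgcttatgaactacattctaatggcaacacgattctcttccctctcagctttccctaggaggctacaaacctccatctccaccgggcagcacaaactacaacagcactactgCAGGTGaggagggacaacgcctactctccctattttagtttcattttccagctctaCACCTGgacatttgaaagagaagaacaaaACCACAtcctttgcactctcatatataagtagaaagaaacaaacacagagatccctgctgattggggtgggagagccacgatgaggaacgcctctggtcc

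**Figure D2:**
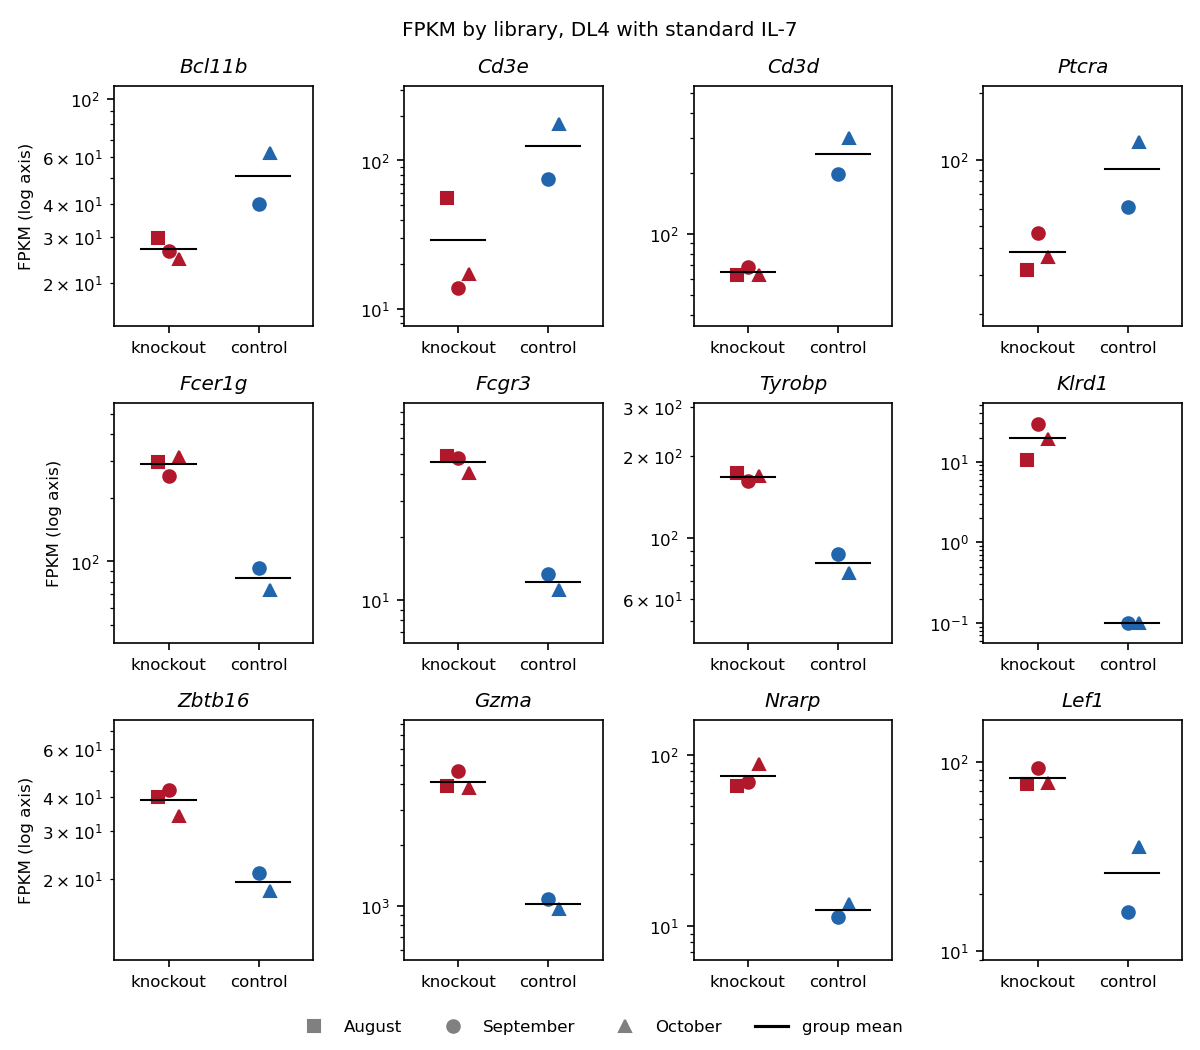
FPKM of 12 genes in each of the 5 libraries on log axes, with knockouts on the left and controls on the right of each panel, symbols for the month in the title and a bar at the group mean. Every knockout lies below both controls for Bcl11b, Cd3e, Cd3d and Ptcra and above both for the other 8 genes; Klrd1 is at the floor of 0.1 in the controls.

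Among 11 tested regulators of innate lymphoid cells the median difference was 0.23, and Zbtb16 was among those called. Zbtb16 encodes PLZF, a zinc-finger factor that directs innate-like T cells and innate lymphoid precursors, and it had 40.1, 42.6 and 34.2 FPKM in the knockouts, against 21.1 and 18.1 FPKM in the controls. The knockouts were about alike and all above the controls, with a rise of 0.95 ± 0.18 (limma adjusted p = 0.0361). It was not called when any knockout was left out (limma adjusted p = 0.0588 to 0.149), nor with the title date as a fixed block (0.0565). With the date as a random block it was called (0.0480). With any library left out its difference ran from 0.85 to 1.06. Il17rb, a chain of the IL-25 receptor, Nfil3, which promotes innate lymphoid precursors, and Id2, an inhibitor of E proteins, were above both controls in every knockout, with differences of 0.83, 0.76 and 0.44, but did not pass the test (limma adjusted p = 0.0684, 0.140 and 0.256). Il2rb, the receptor chain for IL-2 and IL-15, overlapped, at 7.66, 9.24 and 7.01 FPKM in the knockouts, against 7.97 and 7.41 FPKM in the controls.

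Among Notch receptors, Notch target genes and Dlk1, 3 of 11 rose and none fell, with a median of 0.38. Over all genes tested 1.31% were called higher. Nrarp, a target gene whose product dampens Notch signalling, had 65.5, 69.8 and 88.9 FPKM in the knockouts, against 11.3 and 13.3 FPKM in the controls. It was far above the controls in every knockout and rose by 2.50 ± 0.20 (limma adjusted p = 0.00115). Heyl, a repressor of the Hairy family, had 4.74, 3.39 and 3.87 FPKM in the knockouts, against 1.29 and 1.00 FPKM in the controls. It rose by 1.21 ± 0.22 (limma adjusted p = 0.0265) and remained called only when the September knockout was left out (0.0835 to 0.193 otherwise). Dlk1, a Delta-like protein without the usual Notch-binding motif, had 69.9, 76.8 and 78.2 FPKM in the knockouts, against 42.6 and 40.6 FPKM in the controls, a rise of 0.83 ± 0.16 (limma adjusted p = 0.0388) that was lost with each library left out (0.0794 to 0.219) and with the block (0.0761). Not all targets did this. Hes1 had 54.4, 43.2 and 62.1 FPKM in the knockouts, against 54.8 and 68.1 FPKM in the controls, and Dtx1 and Notch1 overlapped because the controls themselves were far apart. Dtx1 had 25.9, 12.2 and 31.4 FPKM in the knockouts, against 6.66 and 55.9 FPKM in the controls, and Notch1 had 107, 96.6 and 109 FPKM in the knockouts, against 38.5 and 163 FPKM in the controls.

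Of 17 transcription factors of the T lineage, Lef1 alone was called, beside 1.31% of all genes tested called higher, and the median was -0.15. Lef1, a partner of beta-catenin and relative of Tcf7, had 75.8, 92.1 and 77.5 FPKM in the knockouts, against 16.1 and 35.6 FPKM in the controls. It rose by 1.72 ± 0.29 (limma adjusted p = 0.0232), without overlap, and was not called without the August (0.113) or October knockout (0.0960) or the September control (0.0629). Tcf7 itself lay the other way in every knockout, at 435, 411 and 451 FPKM, against 641 and 621 FPKM in the controls, and did not pass the test (-0.55 ± 0.17, limma adjusted p = 0.160). Gata3 overlapped, at 52.2, 53.1 and 59.6 FPKM in the knockouts, against 39.1 and 55.5 FPKM in the controls. Ets1, Ikzf3 and Spib were below both controls in all knockouts, with differences of -1.05, -1.81 and -1.12 (limma adjusted p = 0.0891, 0.157 and 0.0880). With Bach2 they were called lower with the fixed block (0.00703, 0.0183, 0.0135 and 0.0291). None of the 4 was called with the random block (0.116, 0.178, 0.111 and 0.333). Id3, an inhibitor of E proteins, had 4.25, 15.6 and 13.7 FPKM in the knockouts, against 13.2 and 13.2 FPKM in the controls, so only the August knockout was low.

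Of 14 regulators of stem and progenitor cells, Bcl11a rose, beside 1.31% of all genes tested called higher. The other 13 did not pass the test, and the list's median was 0.29. Spi1, the gene of PU.1, which keeps myeloid potential open, had 21.2, 20.1 and 21.3 FPKM in the knockouts, against 16.2 and 11.6 FPKM in the controls. Its difference of 0.57 ± 0.20 did not pass the test (limma adjusted p = 0.179). Hhex, Gfi1b and Meis1 were likewise above both controls in every knockout, at 1.00, 0.83 and 0.30, and not called (limma adjusted p = 0.105, 0.240 and 0.522). Erg and Nfe2 overlapped between the groups, at -0.46 and -0.41.

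No receptor for cytokines passed the test, of 14 tested, and no gene of the cytokine response, of 8 tested. The medians were 0.15 and -0.02. Il7r, the alpha chain of the receptor for the IL-7 given in culture, had 36.2, 43.8 and 30.4 FPKM in the knockouts, against 31.5 and 34.0 FPKM in the controls. Il2ra had 491, 386 and 341 FPKM in the knockouts, against 315 and 391 FPKM in the controls, and Il2rg 188, 153 and 155 FPKM in the knockouts, against 155 and 142 FPKM in the controls. The groups overlapped for all these receptors. Pim1 and Pim2, kinases induced by cytokines, were slightly above the controls in every knockout, at 0.34 and 0.26 (limma adjusted p = 0.409 and 0.480). Cish, a feedback inhibitor of cytokine signals, was at 6.56, 2.74 and 2.90 FPKM in the knockouts, against 10.8 and 11.2 FPKM in the controls. It was not called (limma adjusted p = 0.0712, and 0.0979 with the random block), but was called with the fixed block (0.000415). Il15ra and Il21r were also called with the fixed block, higher and lower (0.0300 and 0.000138), but not with the random block (0.0761 and 0.379) or without a block.

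Of 9 survival genes of the Bcl2 family, Bid rose, beside 1.31% of all genes tested called higher, and the median was 0.04. Bid, a BH3 protein that links death receptors to mitochondria, had 33.8, 31.6 and 32.2 FPKM in the knockouts, against 16.5 and 9.85 FPKM in the controls. It rose by 1.28 ± 0.22 (limma adjusted p = 0.0258) and was not called without the August (0.130) or October knockout (0.0916) or the October control (0.153). Bcl2, Mcl1, Bcl2l1 and Bcl2l11 overlapped between the groups. Of 16 genes of homing and adhesion, Cxcr5 rose, beside the same 1.31%, and the median was 0.15. Cxcr5, the receptor for the chemokine CXCL13, had 24.1, 21.2 and 18.1 FPKM in the knockouts, against 4.22 and 2.74 FPKM in the controls. All knockouts were far above the controls, a rise of 2.32 ± 0.22 (limma adjusted p = 0.00297). The sphingosine phosphate receptor S1pr1, Cxcr4 and Ccr7 overlapped, and Klf2, which drives S1pr1, lay below both controls in every knockout without passing the test (-0.84, limma adjusted p = 0.102).

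Genes of later or other lineages were also among the calls. Of 9 genes of beta-selection and the double-positive stage 3 fell, Cd4, Cd8a and Cd8b1, with a median of -0.61. Over all genes tested 0.789% were called lower. Cd4 had 9.25, 9.92 and 9.76 FPKM in the knockouts, against 23.4 and 23.7 FPKM in the controls, and fell by 1.20 ± 0.17 (limma adjusted p = 0.0134). Cd8a had 4.501, 10.9 and 10.9 FPKM in the knockouts, against 27.1 and 26.6 FPKM in the controls, a fall of 1.597 ± 0.33 (limma adjusted p = 0.0482), and Cd8b1 fell by 1.66 ± 0.34 (0.0437). For these genes the September and October libraries of each genotype were nearly equal, in values the authors had adjusted, and the share of the adjustment in this was not tested. Cd4 was not called without the August knockout (0.0750), the September (0.0639) or the October control (0.104), while Cd8a and Cd8b1 remained called only in the comparison without the September knockout (0.0613 to 0.222 otherwise). Cd163l1, a scavenger receptor of gamma-delta T cells, had 311, 295 and 287 FPKM in the knockouts, against 151 and 161 FPKM in the controls. It rose by 0.93 ± 0.17 (limma adjusted p = 0.0276) but was not called when any knockout was left out (0.0547 to 0.113). With any library left out its difference ran from 0.881 to 0.975. It was not called with the title date as a fixed block (0.0872), but was with the date as a random block (0.0353). Sox13, another gene of that lineage, was at 13.9, 16.2 and 30.6 FPKM in the knockouts, against 35.8 and 43.4 FPKM in the controls (limma adjusted p = 0.142).

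Markers of other blood lineages were mostly low. No myeloid marker of 6 tested was called, and Elane, Ctsg, Csf1r and Itgax were too low to be tested. Mpo had 18.9, 3.94 and 2.68 FPKM in the knockouts, against 17.04 and 12.6 FPKM in the controls, so the August knockout was like the controls. It was not called (limma adjusted p = 0.378, and 0.460 with the random block), except with the fixed block, which sets that library aside (9.1e-05). Mcpt8, a basophil protease, had 3.63, 1.20 and 2.62 FPKM in the knockouts and was listed at the floor of 0.1 in both controls, a difference of 1.597 ± 0.31 (limma adjusted p = 0.0378). It stayed called only when the September knockout was left out (0.105 to 0.190 otherwise). Cpa3, also of mast cells, had 342, 340 and 319 FPKM in the knockouts, against 267 and 140 FPKM in the controls (limma adjusted p = 0.172). Bank1, a B-cell adaptor, had 2.61, 3.77 and 3.40 FPKM in the knockouts, against 0.52 and 0.48 FPKM in the controls. It rose by 1.495 ± 0.21 (limma adjusted p = 0.0134). Of the 6 B-cell genes tested it alone was called, and their median was 0.18. In 3 of the 6 every knockout lay above both controls, and in the other 3 below both. These shares were 20.6% and 14.3% of all genes tested. Cd79a and Ebf1 were too low to be tested. Bank1 was not called without the October knockout (0.0654) or either control (0.0580 and 0.0974). Itga2b, the CD41 integrin of megakaryocytes and early progenitors, had 30.6, 32.6 and 43.0 FPKM in the knockouts, against 16.6 and 11.3 FPKM in the controls. It rose by 1.29 ± 0.23 (limma adjusted p = 0.0265) and was not called without the August (0.0987) or October knockout (0.0837) or the October control (0.187). Gata1, the erythroid factor, went the other way, at 1.75, 2.67 and 3.20 FPKM in the knockouts, against 10.2 and 8.27 FPKM in the controls, a fall of 1.55 ± 0.24 (limma adjusted p = 0.0165) that was lost without the August knockout (0.0718) or either control (0.0893 and 0.0876).

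Stromal markers had a higher sum in the knockouts, although the gate required CD45, which stromal cells lack. The 12 genes of the list that are in the table summed to 44.8, 131 and 62.5 FPKM in the knockouts, against 18.3 and 16.7 FPKM in the controls. The September knockout was the highest, and all knockouts were above both controls for 8 of the 9 genes tested, beside 20.6% of all genes tested. The median difference was 1.47. Fn1, fibronectin, rose by 2.08 ± 0.30 (limma adjusted p = 0.0136) at 4.75, 10.4 and 7.31 FPKM in the knockouts, against 0.66 and 1.25 FPKM in the controls, and the block added Col1a1, Col1a2, Col3a1, Col5a1, Col6a1, Sparc and Cxcl12. Fn1 was not called without the October knockout (0.0781) or either control (0.0709 and 0.0576). Dcn was at the floor in all knockouts and Lum is not in the table. Of the genes called higher above, Klrd1, Bank1 and, by a narrow margin, Lef1 were also highest in the September and lowest in the August knockout. Fcer1g, Fcgr3, Tyrobp, Nrarp and Gzma did not follow that order. Among genes above that were not called higher, Klrc1, Nfil3, Meis1, Ptcra, Gzmb and Id3 were some that did. The part of the stromal signal in these results was not tested. Without the September knockout 42 of the 47 called genes taken by the rule for named genes were still called, all but Cd247, Zbtb16, Pdlim4, Dlk1 and Cd163l1.

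Of 15 interferon-induced genes tested, Gbp6 fell, beside 0.789% of all genes tested called lower, and the median was -0.37. Every knockout lay below both controls in 8 of the 15, beside 14.3% of all genes tested, and above both in 0, beside 20.6%. Gbp6, a guanylate-binding protein, had 4.11 FPKM in the August knockout and was listed at the floor of 0.1 in the others, against 25.9 and 26.8 FPKM in the controls. The difference was -3.90 ± 0.59 (limma adjusted p = 0.0152) and was not called without the October knockout (0.0877) or either control (0.0636 and 0.103). Oasl2, Irf7 and Isg15 were below both controls in every knockout, at -2.42, -0.79 and -0.76, and not called (limma adjusted p = 0.0735, 0.172 and 0.152). With the fixed block, which left 1 residual degree of freedom, 4 of the 15 were called lower, Oasl2 and Gbp2 among them (limma adjusted p = 8.1e-06 and 0.0132). None of 21 genes of proliferation was called, and their median was 0.02: Top2a had 273, 195 and 261 FPKM in the knockouts, against 241 and 212 FPKM in the controls. None of 10 immediate early and heat-shock genes was called, with a median of -0.49. Fos, Fosb, Jun and Egr1 overlapped between the groups and were highest in the October control, apart from Jun, which was highest in the August knockout.

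Among protein-coding genes with a group mean of 5 FPKM or more, the largest rises outside these lists were in Gal, Pdlim4, Trnp1, Tubb6, Pdzk1, Spp1, Arsi, Gpr83 and Tas1r1. Gal, the neuropeptide galanin, had 9.94, 24.9 and 15.4 FPKM in the knockouts and was listed at the floor of 0.1 in both controls. The difference was 3.92 ± 0.33 (limma adjusted p = 0.00177), in the same order over the knockouts as the stromal sum. Elsewhere Gal ran from 0.1 to 4.055 FPKM in DL1 controls (median 2.20) and from 4.02 to 4.76 FPKM in controls with reduced IL-7. It had 3.77 to 5.07 FPKM in normal DN2a cells and 4.15 to 5.17 FPKM in normal DN2b cells. Trnp1, a nuclear protein known from neural progenitors, was likewise at the floor in both controls and had 11.9, 7.35 and 9.70 FPKM in the knockouts (3.25 ± 0.24, limma adjusted p = 0.00115). Pdzk1, a scaffold protein, had 9.91, 12.3 and 8.62 FPKM in the knockouts, against 0.61 and 0.52 FPKM in the controls (2.84 ± 0.22, limma adjusted p = 0.00115). None of the 3 exceeded 0.61 FPKM in a control of this comparison. Gpr83, a G protein-coupled receptor, had 17.3, 17.6 and 14.4 FPKM in the knockouts, against 0.98 and 2.45 FPKM in the controls (2.73 ± 0.26, limma adjusted p = 0.00297). Spp1, osteopontin, had 6.18, 20.0 and 12.8 FPKM in the knockouts, against 0.1 and 2.12 FPKM in the controls, again in the order of the stromal sum. It rose by 2.78 ± 0.51 (limma adjusted p = 0.0299) and was not called without the August (0.0668) or October knockout (0.118) or the September control (0.119). Pdlim4 was the closest of them to the threshold, at 26.4, 38.6 and 21.1 FPKM in the knockouts, against 7.14 and 0.1 FPKM in the controls (3.27 ± 0.68, limma adjusted p = 0.0498), and stayed called only without the September control. Tubb6, a beta-tubulin, was not called without the August (0.101) or October knockout (0.0960), and Arsi, a sulfatase, not without the August knockout (0.105) or either control (0.0644 and 0.162).

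With the same limit on level, and the lists included, the largest falls were in Myl10, Gbp6, Cd59a, Uaca, Thrb, Mpzl2, Steap3, Ttll9, Ndrg1 and Aldoc. Myl10, a myosin light chain, was listed at the floor of 0.1 in all 3 knockouts, against 46.1 and 32.8 FPKM in the controls. The groups were fully apart, with a difference of -5.18 ± 0.22 and the smallest adjusted p of the genes named (3.7e-05). Myl10 passed the filter on low values through the controls alone, and the knockouts, all at the floor, added no spread. Cd59a, which protects cells from complement, had 0.68, 0.1 and 0.27 FPKM in the knockouts, against 6.05 and 12.4 FPKM in the controls, and fell by 2.87 ± 0.31 (limma adjusted p = 0.00473). Ndrg1, a stress-responsive gene, had 21.2, 15.6 and 18.0 FPKM in the knockouts, against 60.8 and 85.9 FPKM in the controls, and fell by 1.94 ± 0.21 (limma adjusted p = 0.00473). Thrb, the thyroid hormone receptor beta, had 1.55, 0.26 and 0.32 FPKM in the knockouts, against 4.62 and 9.08 FPKM in the controls, and fell by 2.21 ± 0.36 (limma adjusted p = 0.0197). It was not called without the October knockout (0.0986) or the October control (0.148). The groups were apart in all these genes. Myl10 and Cd59a stayed called without each knockout, and without either control they no longer passed the filter on low values. Uaca, Mpzl2, Steap3 and Aldoc fell by 2.73, 2.19, 1.99 and 1.93, and each lost its call without the October knockout (0.0794, 0.118, 0.0837 and 0.128) and without the October control (0.0793, 0.237, 0.218 and 0.121), as well as in 1 or 2 other cases.

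The same comparison on OP9-DL1, which presents Delta-like 1, had 7 knockouts and 6 controls, dated the following year and harvested on days 9 to 12, and shares no library with the DL4 comparison. Stroma, year and day therefore changed together, and the titles of 6 of the 7 DL1 knockouts name DN2 or DN2b. Of the 268 genes called on DL4, 246 had a difference of the same sign on DL1 (91.8%), beside 64.6% of all 12793 genes. In the DL1 comparison 163 of them were also called, 60.8% of the DL4 calls and 16.9% of the 966 DL1 calls among these genes, and all 163 had the same sign. The DL1 calls used a spread shared over 31 fetal liver libraries, and the DL4 calls that of their own 5 libraries. Over all 14927 genes tested on DL1, 7.25% were called. The test of the difference between the stromas called 6 of 14927 genes (0.0402%), all of them predicted genes: Gm10020, Gm11837, Gm13456, Gm15459 and Gm17431 with a more positive difference on DL4, and Gm7618 with a more negative one. At an unadjusted p below 0.05 there were 644. The number called was 3 without the September knockout, the October knockout or the October control on DL4. No gene named above was among the 6.

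Named genes were set side by side on both stromas. Nrarp had a lowest, median and highest value of 29.3, 65.4 and 98.3 FPKM in the DL1 knockouts, against 3.56, 11.4 and 34.9 FPKM in the DL1 controls. Its difference was 2.29 there and 2.50 on DL4. Cd3d ran from 0.1 over 33.3 to 61.0 FPKM in the DL1 knockouts, against 66.3 over 213 to 275 FPKM in the DL1 controls. Its difference was -3.73 there and -1.90 on DL4, and the change between stromas was not called (1.83 ± 1.66, limma adjusted p = 0.999). Fcgr3 had a difference of 4.02 on DL1 and 1.82 on DL4 (limma adjusted p = 0.185 for the change), with the DL1 controls at 0.72 to 3.72 FPKM. Lef1, Spp1, Pdlim4 and Arsi had differences of -0.31, -0.15, 0.04 and -0.23 on DL1, beside 1.72, 2.78, 3.27 and 2.74 on DL4. None of these changes was called (limma adjusted p = 0.999, 0.590, 0.999 and 0.504). Myl10 had 32.3 to 89.5 FPKM in the DL1 knockouts, against 65.5 to 168 FPKM in the DL1 controls. Its difference of -1.065 there was not called (limma adjusted p = 0.520), beside -5.18 on DL4 (0.79 for the change). Gpr83, Gal and Klrd1 had differences of 0.29, 1.39 and 1.33 on DL1, beside 2.73, 3.92 and 4.13 on DL4. These changes were not called either (limma adjusted p = 0.36, 0.355 and 0.534).

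**Figure D3:**
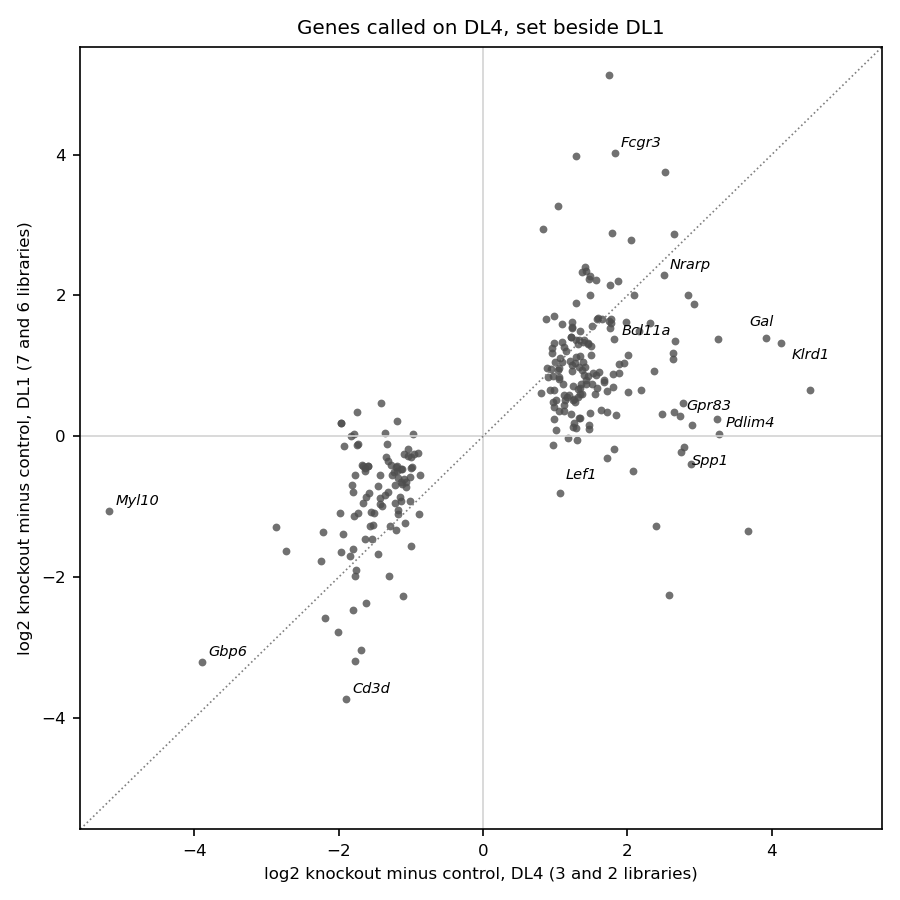
Each of the 268 genes called on DL4 by its log2 difference, knockout minus control, on DL4 (horizontal) and on DL1 (vertical), both on the log2(FPKM + 1) scale, with the dotted line at equal differences. Of these, 246 have the same sign on both stromas; Nrarp lies near the line, and Pdlim4 and Spp1 lie near 0 on DL1.

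Cultures with reduced IL-7 comprised 4 knockouts and 3 controls on either stroma, all dated the year before except a DL4 knockout titled September of the same year, and share no library with the standard comparison. Of the 268 genes, 240 had the same sign there (89.6%), beside 67.3% of all genes. The difference between the conditions was called for 52 of 14927 genes (0.348%), 3 more positive and 49 more negative at standard IL-7, and 1062 had an unadjusted p below 0.05. Among the genes named, Zbtb16, Fcgr3, Dlk1, Itga2b, Il2rb and Pim2 were in that set, all with a smaller difference at standard IL-7. Zbtb16 had 42.5 to 83.1 FPKM in the 4 knockouts with reduced IL-7, against 0.1 to 1.51 FPKM in the 3 controls. Its difference was 5.46 there and 0.95 at standard IL-7 (-4.51 for the change, limma adjusted p = 0.00378), where the controls had 21.1 and 18.1 FPKM. Fcgr3 differed by 5.71 with reduced IL-7, beside 1.82 (-3.89 for the change, limma adjusted p = 0.000921), and Dlk1 by 7.21, beside 0.83 (-6.38, 0.0108). The Dlk1 controls were all at the floor of 0.1 with reduced IL-7. Stroma and year moved with IL-7 in this contrast and their part was not tested. The number called was 6 without the September control on DL4 with standard IL-7, 16 without the October one, and 116 without the September knockout with reduced IL-7, and ran from 20 to 34 without any other library.

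The DL4 knockout of September with reduced IL-7 shares stroma, genotype and title date with the September knockout at standard IL-7. It lay on the knockout side of both standard controls for 166 of the 167 genes called higher and for 98 of the 101 called lower, beside 47.2% of all genes tested above both controls and 28.0% below both. The called genes had been chosen against these same controls, so these counts are a description. Klrd1 had 27.7 FPKM in it, Nrarp 94.4, Gzma 4574 and Gal 25.6, all within or above the range of the 3 standard knockouts. Bcl11b had 24.1 FPKM, just below that range. Zbtb16, at 42.5 FPKM, and Dlk1, at 75.8, were within the range of the standard knockouts, well below the highest reduced-IL-7 knockouts, at 83.1 and 224 FPKM. With this library added to the knockouts 615 genes were called, and Bcl11b and Ets1 were among them (limma adjusted p = 0.0337 and 0.0388).

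Because the knockouts were sorted as DN2a and the controls as DN2b, the normal difference between these stages was set beside the knockout difference. It rests on 4 normal DN2a and 2 normal DN2b fetal liver libraries grown on DL1, 1 of which is titled DN3 but labelled DN2b, and shares no library with the DL4 comparison. Stroma and title dates therefore differed from the DL4 comparison as well, and the titles of these normal libraries name no Cre. The part of these in a difference from the step was not tested. Of the 268 genes, 183 had the same sign in both (68.3%), beside 55.0% of all genes. Of the 167 genes higher in the knockouts 49 were also higher in normal DN2a than in DN2b cells, 7 were lower and 111 were not called in the normal step. Of the 101 lower genes 34 were lower in DN2a cells, 3 higher and 64 not called. Over all 14927 genes, 17.7% were called in the normal step. The test of the difference between the knockout effect and the normal step called 630 of 14927 genes (4.22%), 469 positive and 161 negative, against 263 and 250 after quantile normalization. That number was 23 without the September control, 60 without the DN2b library titled DN3, 260 without the October knockout, 339 without the August knockout, 343 without the September knockout and 391 without the DN2a library of day 4.5.

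Some genes rose in the knockouts by more than the normal step. Klrd1 had 1.67 to 5.22 FPKM in normal DN2a cells and 1.57 to 4.30 FPKM in normal DN2b cells, a step of 0.37, beside 4.13 in the knockouts (3.76 for the difference, limma adjusted p = 0.0299). Gal, Trnp1, Pdzk1, Gpr83 and Gzma had steps of -0.01, -0.14, -0.44, -0.76 and -0.30, and their differences from the step were all called (limma adjusted p = 0.00840, 0.00182, 6.0e-05, 0.0127 and 0.0105). Gzma had 1031 to 1489 FPKM in normal DN2a cells, below every knockout. Lef1 and Cd163l1 went against the step: they were lower in normal DN2a than in DN2b cells, by -2.79 and -4.31, but rose in the knockouts (4.51 and 5.24 for the difference, limma adjusted p = 0.0411 and 0.00966). Col15a1, a basement membrane collagen, was at 0.1 to 1.55 FPKM in normal DN2a cells and 27.1 to 47.6 FPKM in DN2b cells, and had 90.8, 53.2 and 63.6 FPKM in the knockouts, against 22.1 and 13.8 FPKM in the controls. Its knockout call was lost without the August knockout, the October knockout or the October control (limma adjusted p = 0.0689, 0.0729 and 0.0932). It gave the largest positive difference from the step among the genes named (6.66, limma adjusted p = 0.000396).

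Cd247 and Thy1 differed less between knockout and control than between the normal stages. Cd247 was at 0.1 to 8.49 FPKM in normal DN2a cells and 42.4 to 107 FPKM in DN2b cells, a step of -5.18, beside -0.89 in the knockouts (4.30 for the difference, limma adjusted p = 0.0127). Thy1 had 0.1 to 54.5 FPKM in normal DN2a cells and 346 to 659 FPKM in DN2b cells, while it had 449, 419 and 537 FPKM in the knockouts, against 558 and 457 FPKM in the controls (5.87, limma adjusted p = 0.0187). Cd3e and Cd3d had steps of -5.27 and -5.12 and differences from it of 3.04 and 3.22, neither called (limma adjusted p = 0.264 and 0.367). Other genes rose less than the step. Itga2b and Tyrobp were higher in normal DN2a cells by 5.89 and 5.61, beside 1.29 and 1.04 in the knockouts (-4.60 and -4.57, limma adjusted p = 0.00118 and 0.0207). Mpo and Hbb-b2, of myeloid and red cells, were higher in normal DN2a cells by 3.39 and 4.71, and were not called in the knockouts, at -1.14 and -0.20 (-4.53 and -4.90, limma adjusted p = 0.0358 and 0.0110). Nrarp and Bcl11a had steps of 0.96 and 1.17, and their differences from it were not called (limma adjusted p = 0.234 and 0.449). Gbp6 and Myl10 were lower in normal DN2a cells by -5.15 and -4.36, beside knockout differences of -3.90 and -5.18, and the differences from the step were not called (limma adjusted p = 0.621 and 0.843).

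**Figure D4:**
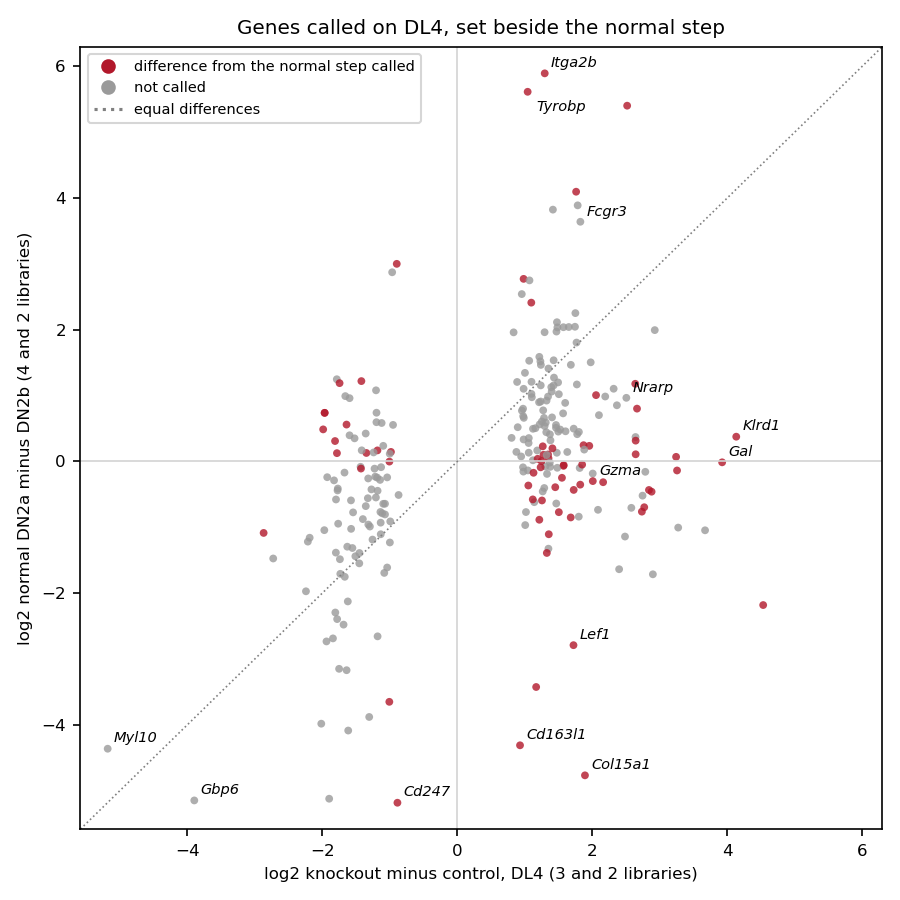
Each of the 268 genes called on DL4 by its log2 difference, knockout minus control on DL4 (horizontal) and normal DN2a minus DN2b (vertical), both on the log2(FPKM + 1) scale; red points differ from the step by the limma test and the dotted line marks equal differences. Klrd1, Gal and Gzma lie near 0 on the vertical axis, Lef1, Cd163l1 and Col15a1 lie far below it, and Gbp6 and Myl10 lie near the dotted line.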

How the data were processed

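RNA-seq was measured in 47 libraries, of which 5 form this comparison and 31 fetal liver libraries the difference tests. Per the labels' protocols, Trizol RNA was selected on oligo-dT beads, fragmented and randomly primed, with no strand step, so overlapping antisense genes cannot be told apart. The authors deposited FPKM values, merged and adjusted with ComBat per the table's name, on mm9, a build that the submitters' processing notes name. For the aligner, quantifier and ComBat batches, details are not given in these sources, and the adjustment may have moved the differences in either direction. Of 17754 entries, 184 shared 92 symbols. Spi1 and Tespa1 stand under older symbols. A further 16 columns matched no sample and were not used.

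From these values log2(FPKM + 1) was computed and genes at 1 FPKM or more in at least 2 fitted libraries were tested with limma 3.58.1 in R 4.3.3 (empirical Bayes with a trend, Benjamini-Hochberg over all genes tested). The 3 difference tests used group means of the 31 libraries with a shared spread. So did the knockout comparisons on DL1 and at reduced IL-7, and the normal step. The comparison, the 23 gene lists, the 25 fixed genes and the rule for named genes were chosen with earlier results of these data known. The rule took those genes, the 10 called genes furthest each way among protein-coding genes with a group mean of 5 FPKM or more, from each list as many as 4 called members or, with none called, its 2 most abundant, and 3 called genes each way of each difference test. Further members were named after their values were seen, and a few genes are not reported here. Lists are described by counts and medians. Promoters were found for 54 of 76 named genes. Steps were tested on simulated data.

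The pairing comes from the title dates, which September and October knockouts and controls share. Deviations from the group means correlated at 0.01 in the September pair and -0.04 in the October pair. The replicate block left 1 residual degree of freedom.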

Additional observations from a re-analysis of the deposited data

Results flagged for a closer look

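In the other groups, 10 of 100 combinations of a fixed gene and a group held a library far from its companions by Dixon's test, which chance alone gives in about 1 of 20. On DL1, the knockout of day 12 with the latest title date was the highest of 7 for Tyrobp (511 FPKM, median of the others 256), Fcer1g (491, 291) and Gata3 (135, 57.5). The control of day 9 of July was the highest of 6 for Bcl11a (9.92, 4.43) and Nrarp (34.9, 9.03). At reduced IL-7, the DL4 knockout of September was the highest of 4 for Bcl11a (17.9, 10.8) and Nrarp (94.4, 35.3) and the lowest for Zbtb16 (42.5, 81.1), in each case nearer to the standard DL4 knockouts. Among normal DN2a libraries, 1 stood out for Cd3e (21.9 FPKM, others at a median of 0.1) and another for Cd247 (8.49, 0.1).

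The knockout difference at standard IL-7 on DL4 was below that at reduced IL-7 in the test of the difference itself for 6 named genes, Zbtb16 (-4.51), Fcgr3 (-3.89), Il2rb (-4.18), Dlk1 (-6.38), Itga2b (-3.70) and Pim2 (-4.52). Il2rb and Dlk1 were at the floor of 0.1 in all 3 controls with reduced IL-7.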

How the results depend on the processing

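The count of 268 calls was within 1.5 times of its value with a pseudocount of 0.1 (230), quantile normalization (249, of which 57.0% were higher, against 62.3%), no trend (272), a random date block (221) and a spread shared over the fetal liver libraries (228, of which 143 were among the 268). It was 27 with no filter on low values, 429 with robust variances, 645 with the title date as a fixed replicate block, 666 in the date-matched pairs alone and 615 with the September knockout at reduced IL-7 added. Leaving out a library gave 59 to 244. The difference from DL1 gave 3 to 6 calls, that from reduced IL-7 6 to 116, and 34 with no filter or 29 after quantile normalization, and that from the normal step 23 to 650. The cause of these changes was not tested. Among named genes, the fixed block ended the calls of Cd247, Zbtb16, Dlk1 and Cd163l1, added Cd3e, Ptcra, Ets1 and Mpo, and changed no other call. Of the 47 named calls, 8 stayed with no filter on low values, with Bcl11a, Klrd1, Gzma and Cd3d among those lost. With the shared spread 25 stayed, with Cd3d, Cd3g, Cd247, Tyrobp, Fcer1g, Ndrg1 and Lef1 among those lost. The random block ended Cd3g, Pdlim4, Mpzl2, Aldoc, Dlk1, Cd8b1 and Cd8a. The other settings kept 38 to 46, and 17 to 42 stayed with a library left out. Genes that were not called changed sign: Id3 to 0.14 and Top2a to -0.003 with the block and in the pairs alone, and Rag2 to 0.009 with the random block. With a library left out their differences ran from -0.69 to 0.14 for Id3, -0.004 to 0.24 for Top2a, -0.21 to 0.31 for Rag2, -0.06 to 0.12 for Il2rb, -0.015 to 0.48 for Gata3, -0.70 to 0.37 for Notch3, -0.25 to 0.88 for Socs1, -0.26 to 0.027 for Thy1, -0.079 to 0.25 for Pcna, -0.20 to 0.27 for Hspa8, -0.10 to 0.28 for Ier2 and -1.19 to 0.80 for Hbb-b2. With 3 and 2 libraries and unknown depth, a gene that was not called is not shown to be alike in the groups.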

Other observations

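Other called genes, picked after their values were seen, add to these groups. Each lost its call when at least 1 library was left out. Trac, the constant region of the T-cell receptor alpha locus, had 3.26, 3.34 and 3.42 FPKM in the knockouts, against 9.73 and 7.31 FPKM in the controls, and fell by 1.12 (limma adjusted p = 0.0299), but was called in none of the 5 comparisons with a library left out (0.0596 to 0.149). Tcrg-V5, a variable segment of the gamma locus, had 31.6, 40.0 and 16.9 FPKM in the knockouts, against 8.68 and 5.35 FPKM in the controls, and rose by 1.88 (limma adjusted p = 0.0304), but not without the August knockout (0.153) or either control (0.0595 and 0.209). Receptor segments share sequence with relatives, so their counts are uncertain. Klra5, a Ly49 receptor of NK cells, had 2.67, 10.1 and 6.96 FPKM in the knockouts and was listed at the floor of 0.1 in both controls (2.64, limma adjusted p = 0.0160). It was not called without the October knockout (0.0943) or either control (0.0671 and 0.105). Its relatives are closely alike in sequence, and its order over the knockouts matched that of the stromal sum.

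Fgf3 and Fgf15, fibroblast growth factors on chromosome 7, both rose. Fgf3 had 78.5, 74.8 and 104 FPKM in the knockouts, against 26.1 and 7.30 FPKM in the controls (2.52, limma adjusted p = 0.0210). Fgf15 had 2.61, 4.88 and 4.67 FPKM in the knockouts, against 0.41 and 0.30 FPKM in the controls (1.87, limma adjusted p = 0.0119). Fgf3 was also higher in normal DN2a than in DN2b cells, by 5.40, whereas the step of Fgf15 was 0.25 and was not called (limma adjusted p = 0.554). Hmga2, a chromatin protein of fetal progenitors, had 13.8, 25.6 and 23.2 FPKM in the knockouts, against 5.21 and 5.18 FPKM in the controls (1.77, limma adjusted p = 0.0136). Txk, a Tec-family kinase of T and NK cells, had 56.0, 56.6 and 53.6 FPKM in the knockouts, against 24.2 and 17.9 FPKM in the controls (1.37, limma adjusted p = 0.0103). All 4 genes were above both controls in every knockout. Fgf3 was not called without the August (0.113) or October knockout (0.107), Fgf15 without the October knockout (0.0697) or October control (0.0895), Hmga2 without the October knockout (0.0748) or either control (0.0629 and 0.0974), and Txk without the August knockout (0.0698) or October control (0.0806). Fgf15 and Hmga2 followed the order of the stromal sum over the knockouts.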
